A study of Mus musculus with 6 samples.

Results

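A set of microRNAs known as enriched in brain, namely miR-7a, miR-7b, miR-129, miR-153, miR-326, miR-328, miR-330 and miR-383, was measured in 2 classes of cortical neuron of the newborn mouse. Members were taken by name from the deposited raw sheet, either strand included, which gave 12 assays (13 wells) of 584 microRNA assays on 2 cards. The rule used names alone and no measured value. The study compared callosal projection neurons (CPN), which link the hemispheres and are marked as control in the labels, with subcerebral projection neurons (SCPN), which send axons below the cortex and are marked as test. Each class gave 3 samples of purified cell bodies at postnatal day 1. Strain, labelling and sorting of the neurons, pooling of animals and preamplification were not stated in the labels. Nothing says that replicates came from separate animals, so the p-values may reflect technical spread alone. Brain enrichment could not be checked, as no other tissue was measured.

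A microRNA is cut from a hairpin precursor, and either arm of the hairpin can yield a mature strand that guides silencing of messenger RNAs. Pairing to targets rests mainly on the seed, bases 2 to 8 of the mature strand. MiR-7 is known for its many sites in the circular RNA Cdr1as of neurons and for repression of alpha-synuclein, shared with miR-153. An asterisk in older names marks the strand once taken as the minor one, and the cards follow miRBase release 10, which used such names.

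The mature strands behind the assays are shown to set out which members share a seed and which are arms of 1 hairpin. They are from RefSeq (build GRCm38.p6), 5′ to 3′, with the seed in capitals, and the link from an older assay name to an arm is background knowledge.
miR-7a-5p: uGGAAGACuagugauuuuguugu
miR-7b-5p: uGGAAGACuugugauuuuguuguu
miR-7a-1-3p: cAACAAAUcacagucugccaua
miR-7a-2-3p: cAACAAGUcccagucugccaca
miR-129-5p: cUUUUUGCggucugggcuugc
miR-129-2-3p: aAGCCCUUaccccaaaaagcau
miR-153-3p: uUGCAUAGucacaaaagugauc
miR-326-3p: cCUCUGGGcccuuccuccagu
miR-330-5p: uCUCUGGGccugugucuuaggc
miR-330-3p: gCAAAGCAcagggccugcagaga

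The seed GGAAGAC was held by miR-7a-5p and miR-7b-5p, which differ by A10U (miR-7a base first, counted from the 5′ end) and by 1 base in length, 23 against 24. MiR-326-3p and miR-330-5p share the seed CUCUGGG although they come from different genes, and no other mature mouse strand in that table has it. The asterisk strand of miR-7a can be either miR-7a-1-3p or miR-7a-2-3p, which differ within the seed by A7G, and the assay name does not say which. MiR-7a-5p is encoded at chr13:58392841-58392863 (minus strand, Mir7-1) and again at chr7:78888295-78888317 (plus strand, Mir7-2), and miR-7b-5p at chr17:56243017-56243040 (plus strand). MiR-326-3p lies at chr7:99552328-99552348 and miR-330-5p at chr7:19181486-19181507, both on the plus strand. In the gene table of that build Mir7-1 lies within the span of Hnrnpk, Mir153 within Ptprn2, Mir326 within Arrb1, Mir328 within Elmo3, Mir330 within Eml2 and Mir383 within Sgcz, all protein-coding genes. Mir129-2 lies within the long noncoding Mir670hg, and no gene span held Mir7-2, Mir7b or Mir129-1. The table gives spans alone, so exon and intron were not told apart.

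The Mir330 hairpin is shown because 1 of its arms gave a Ct in all samples and the other in none, with both mature strands in capitals, 5p first (chr7:19181465-19181562, plus strand).
Mir330 hairpin: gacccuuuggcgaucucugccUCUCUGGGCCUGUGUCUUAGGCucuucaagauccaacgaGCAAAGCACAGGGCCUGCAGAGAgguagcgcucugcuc

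Each well reports a threshold cycle (Ct), the PCR cycle in which the fluorescent signal passes a threshold, and a lower Ct means more template. Levels below are Ct with the sign turned, after subtraction from the mean Ct of the microRNA assays of the same card that had Ct under 35 in all 6 samples. On this scale 0 is that mean, and 1 unit is 1 cycle, a log2 unit at full PCR efficiency. A Ct of 35 or more, or none, was set to 35, a limit that gives only an upper bound on the level. Samples had 250 to 331 assays under the limit, and their mean Ct over the common assays of card A was lowest in the replicate 1 samples (21.78 in SCPN, 22.59 in CPN) and highest, at 28.07, in CPN replicate 2. The limit therefore stood at -13.2 in SCPN replicate 1 but at -6.93 in CPN replicate 2. Of the neuron-enriched markers outside the set, 9 of 10 assays on the cards were tested, and their summed level ran from 9.66 to 10.06 in CPN and from 9.42 to 9.99 in SCPN. A summed level is the log2 of the sum of 2 raised to each tested level of a list. It follows the highest assays of the list, and here it joins both cards. The levels in CPN and SCPN were 8.30 ± 1.08 and 8.01 ± 0.68 for miR-9, 2.01 ± 0.60 and 2.59 ± 0.77 for miR-137, and -0.88 ± 0.34 and -1.25 ± 0.87 for miR-124 (SD, n = 3 each). Looked up after their values were seen, miR-138 (6.26 in CPN and 7.28 in SCPN) and miR-138* (0.043 and 1.30) were the 2 of these 9 whose groups did not overlap. They are named for 1 microRNA, and their limma adjusted p was 0.706 and 0.697. Over all 306 tested assays the groups of 46 (15.0%) did not overlap. Assays listed as markers of other cells gave signal too, though several of these markers are also found in further cells of brain. Of 7 microglia and blood assays 4 were under the Ct limit in all 6 samples, miR-142-3p in 4 samples, miR-451 in 1 and miR-142-5p in 0. Looked up after the values were seen, those 4 ran from miR-155, at -5.71 in CPN and -5.09 in SCPN, to miR-150, at 0.88 and 1.15. Oligodendrocyte miR-338-3p was under the limit in 4 of 6 samples and miR-219 in 1. The level of endothelial miR-126-3p was 2.01 ± 0.48 (SD) among CPN samples and 3.12 ± 1.19 among SCPN samples. The SCPN values were 2.77, 4.44 and 2.14, and the difference was 1.11 ± 0.74 (SE, limma adjusted p 0.787). The other vascular assays differed by 0.791 (miR-126-5p), 0.084 (miR-145) and -0.036 (miR-143), SCPN minus CPN.

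Of the 12 assays, 7 had a Ct under 35 in every sample, miR-7b in 5 samples, miR-7a in 4, miR-153 in 3, miR-129-5p in 1 and miR-330 in 0. The first 10 were tested, since a test needed at least 3 samples under the limit. The asterisk strand of miR-7a was the most abundant on card B, at rank 6 of 98 tested assays in both classes, and miR-328 the most abundant on card A, at rank 24 of 208 in CPN and 37 in SCPN. MiR-383 ranked 78 and 75 on card A, miR-129-3p 100 in both, miR-7b 156 and 140, miR-7a 162 and 165 and miR-153 203 in both. On card B miR-330* ranked 30 in both classes and miR-326 50 and 55. Ranks set Ct of different assays side by side, which also depends on the efficiency of each PCR.

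**Figure D1:**
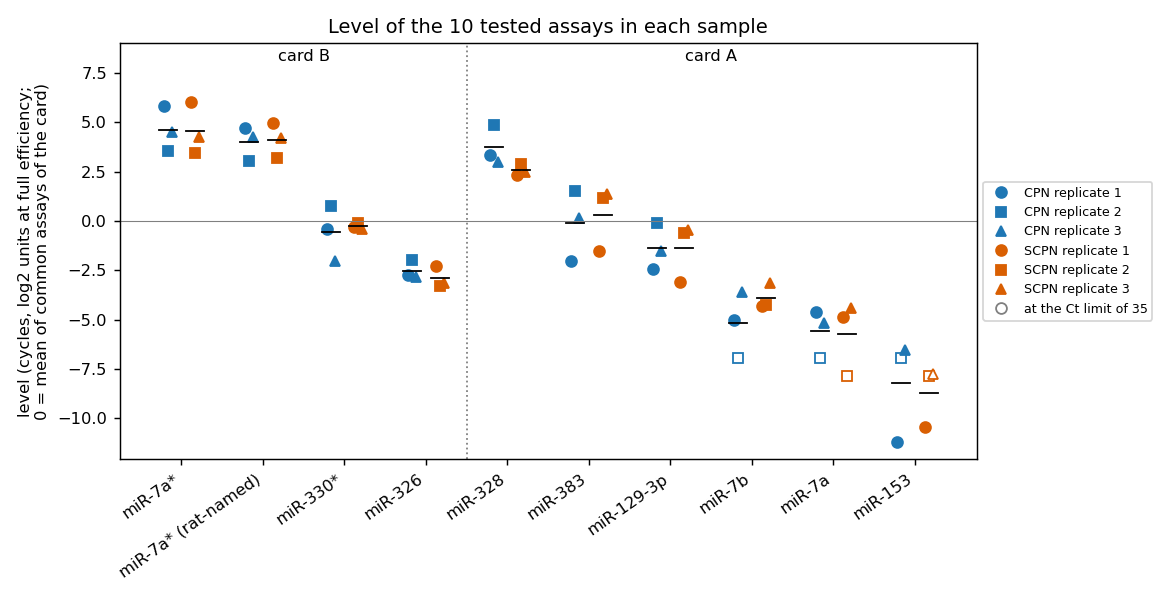
Level of each tested assay (vertical axis, cycles relative to the mean of the common assays of its card) in 3 CPN (blue) and 3 SCPN (orange) samples, with group means as black bars and open marks for values at the Ct limit. In all assays but miR-328 the groups overlap, and the spread within a class is mostly wider than the gap between the means.

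None of the 10 tested assays passed in the comparison of SCPN with CPN, which asked which microRNAs differ between the classes. Limma, fitted over all 306 tested assays, called 0 of them at adjusted p 0.05 (0.0%), and 0 of the 10 members. At an unadjusted p under 0.05 it gave 25 assays (8.17%) and 0 members, and with the replicate number as a block 51 assays and again 0 members. Member means were higher in SCPN for 4 assays and lower for 6, where 45.1% of all tested assays were higher and 54.9% lower. In such bulk samples fewer cells of a type and less RNA per cell cannot be told apart. The median member difference was -0.031 cycles, and that of all tested assays -0.079. Scaled on control RNAs as the authors did, 9 members were higher in SCPN and 1 lower, because that scaling adds 1.24 cycles to every card A difference and 0.381 to every card B difference. A direction of a single member is thus tied to the scale, and both values are given below where the sign turns. The authors' constant was 13.49 on card A and 19.12 on card B in CPN replicate 1, beside 13.84 and 17.4 in SCPN replicate 1. On card A, CPN replicate 2 had a constant of 17.58 at a mean common Ct of 28.07. SCPN replicate 2 had a higher constant, 19.15, at a lower mean common Ct, 27.14. Replicate 1 had the same order on card A, whereas CPN replicate 3 was lower than SCPN replicate 3 in both. In CPN replicate 1 the control U6 had a Ct 6.33 cycles higher on card B than on card A. The control Y1 was higher on card B by 10.5 cycles in that sample and by 7.81 in SCPN replicate 1. The part of single samples or controls in the shift of that scaling was not tested. The standard errors of the member differences ran from 0.592 to 1.37 cycles (median 0.904, against 0.755 over all tested assays).

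**Figure D2:**
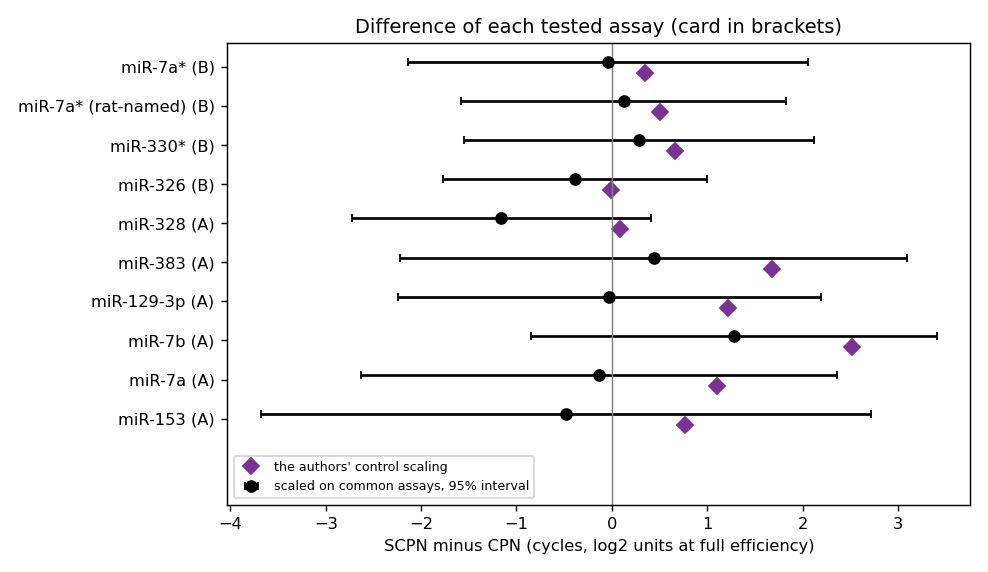
Difference in level, SCPN minus CPN in cycles (horizontal axis), of the 10 tested assays, as black points with 95% intervals from limma and, as purple diamonds, under the authors' control scaling. Every interval includes 0, and the diamonds of the card A assays lie to the right of the points by the same amount.

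The assays of the miR-7 strands without an asterisk stood low on card A, which can also depend on the efficiency of each PCR. Levels of miR-7b were -5.02, -6.93 (at the Ct limit) and -3.61 in CPN and -4.30, -4.26 and -3.16 in SCPN. Its SCPN samples lay closer together, and CPN replicate 3 stood above SCPN replicates 1 and 2, so the groups overlap. The difference was 1.28 ± 0.91 (SE), 2.43-fold, with a 95% interval of -0.85 to 3.41 and a limma adjusted p of 0.787, the largest positive difference among the members. With the replicate block its limma adjusted p was 0.342. The difference turned on single CPN samples. Without CPN replicate 2 the difference was 0.35, and without CPN replicate 3 it was 2.07, where the unadjusted p of 0.0469 was the only one of a member under 0.05 among the runs without 1 sample (limma adjusted p 0.60). With a Ct limit of 32 it was 0.33. By the authors' scaling, with the limit of 35 kept, it was 2.52 cycles, and in the authors' deposited table, which has no such limit, miR-7b had a ratio of 6.39, SCPN over CPN.

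MiR-7a, with the same seed, had a difference of the opposite sign to miR-7b on this scale, and of the same sign by the authors' scaling. Its levels were -4.63, -6.93 (limit) and -5.17 in CPN and -4.85, -7.86 (limit) and -4.42 in SCPN. Replicate 2 was at the limit in both classes, with a Ct of 38.85 in CPN and none in SCPN. The difference was -0.14 ± 1.07 (SE, 95% interval -2.63 to 2.37, limma adjusted p 0.99), and 1.11 by the authors' scaling. The miR-7a and miR-7b assays both gave wide intervals, and the difference between them was not tested.

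The asterisk strand of miR-7a was measured by 2 assays on card B, 1 named for mouse and 1 for rat. The mouse-named assay stood at 5.81, 3.53 and 4.49 in CPN and at 6.03, 3.45 and 4.23 in SCPN. The rat-named assay stood at 4.71, 3.05 and 4.26 in CPN and at 4.97, 3.21 and 4.21 in SCPN. Same-numbered samples of the classes were close to each other in both assays, and replicate 1, the sample with the lowest Ct in each class, was the highest. The differences were -0.036 ± 0.90 and 0.12 ± 0.73 (SE), with limma adjusted p of 0.99 and 0.979, and the same-numbered pairs differed by -0.257 to 0.225 and by -0.049 to 0.26. By the authors' scaling the mouse-named difference turned to 0.345, and the ratios in the authors' deposited table were 1.27 and 1.42. The rat-named assay had the higher Ct in all 6 samples, by 1.09 and 1.06 cycles in the replicate 1 samples and by 0.026 to 0.48 in the others.

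The arms named for 1 microRNA stood many cycles apart, although the miR-7a and miR-129 names each cover 2 hairpin genes, so that their strands need not come from the same one. In every sample miR-7a* crossed the threshold 7.47 to 10.4 cycles before miR-7a, with miR-7a taken at Ct 35 in both replicate 2 samples. MiR-330, the 3p arm known in human prostate cancer cells for repressing E2F1, gave no Ct in any of the 6 samples. Its 5p arm, miR-330*, had Ct of 24.65, 28.04 and 28.52 in CPN and 23.91, 28.18 and 28.83 in SCPN, at least 6.17 cycles below the limit in each. Each of these contrasts spans both cards. Of the control RNAs on both cards, snoRNA135 differed by -0.872 to 0.079 cycles (card B minus card A), snoRNA202 by -0.679 to 0.719 and U87 by -1.81 to -0.143. U6 differed by 6.33 in CPN replicate 1 and Y1 by 2.86 to 10.5. The part of the cards in these gaps was not tested. For miR-129 both arms are on card A. MiR-129-3p had Ct of 25.04, 28.17 and 26.26 in CPN and 24.87, 27.75 and 27.67 in SCPN, whereas miR-129-5p, known from rodent neurons for repressing the potassium channel Kv1.1, gave 32.97 in CPN replicate 3 and no Ct in the other samples.

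**Figure D3:**
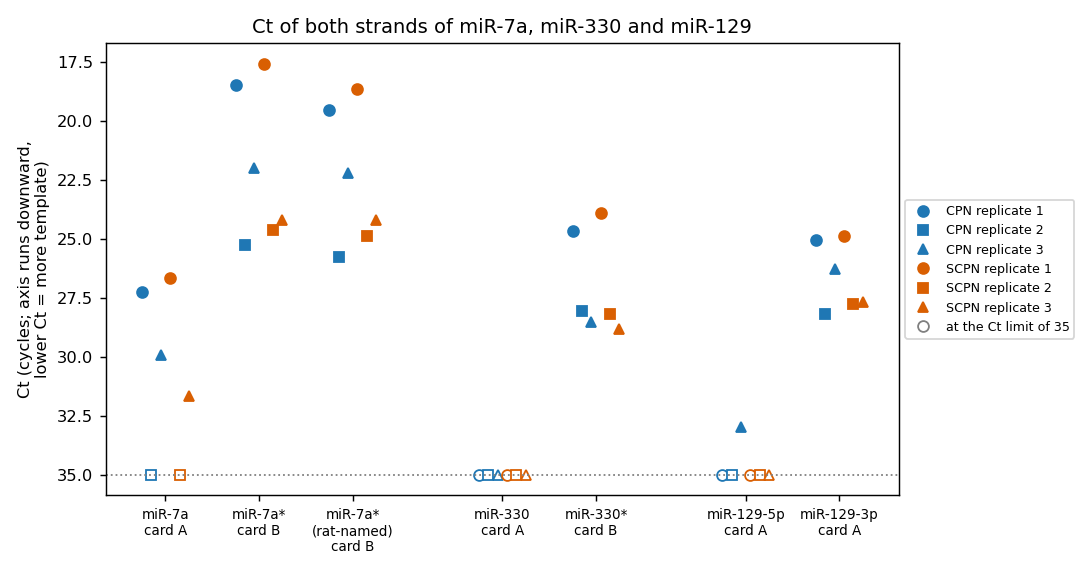
Ct of both strands of miR-7a, miR-330 and miR-129 (vertical axis in cycles, running downward so that more template is higher) in 3 CPN (blue) and 3 SCPN (orange) samples, with open marks for no Ct or a Ct of 35 or more. The miR-7a* assays, miR-330* and miR-129-3p lie above their partner strand in all 6 samples.

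The same order was looked for in the other name pairs. Over 74 other name pairs with at least 1 strand under the limit in 3 or more samples, the asterisk strand had the lower Ct in all 6 samples in 12, or 16.2%, and the median pair had the asterisk strand 4.57 cycles later. Among all 76 pairs, miR-7a and miR-330 ranked 3 and 4 by the mean gap in favour of the asterisk strand. In these gaps a strand of either kind without a Ct under the limit was set to the limit. MiR-330 was under the limit in 0 samples and miR-7a in 4. MiR-29b, with the largest such gap among the other pairs (10.59), was under it in 1. The gaps of these 3 pairs are thus lower bounds, and the ranks and the median depend on the limit. In 69 of the 74 the strands lie on different cards, as they do for miR-7a and miR-330. The pairs were looked up after the members' values were seen, so the counts are a description without a test.

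MiR-326 and miR-330*, which share a seed, differed in opposite directions and neither passed. MiR-326, known in human medulloblastoma cells for repressing the Hedgehog receptor component SMO, stood at -2.72, -1.99 and -2.85 in CPN and -2.29, -3.31 and -3.13 in SCPN. The highest value was in CPN and the lowest in SCPN, with SCPN replicate 1 inside the CPN range. Its difference was -0.39 ± 0.59 (SE, 95% interval -1.77 to 0.99, limma adjusted p 0.902) and -0.009 by the authors' scaling. MiR-326 was the 1 member with 2 wells, whose gap was 0.03 to 1.09 cycles, and the authors' deposited table lists the wells apart, at ratios of 1.11 and 0.892. MiR-330* stood at -0.395, 0.76 and -2.05 in CPN and -0.307, -0.11 and -0.419 in SCPN, so that all SCPN values fell inside the CPN range. Its difference was 0.28 ± 0.79 (SE, 95% interval -1.56 to 2.13, limma adjusted p 0.935), with a sign that turned without CPN replicate 3 (-0.459) and a deposited ratio of 1.59 in the authors' deposited table.

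MiR-328, known for repressing the beta-secretase Bace1, was the 1 member whose groups did not overlap, where 46 of all 306 assays (15.0%) did not and 6.21% were lower in SCPN without overlap. Its levels were 3.34, 4.87 and 3.00 in CPN and 2.32, 2.90 and 2.51 in SCPN. The margin was narrow, with 3.00 in the lowest CPN and 2.90 in the highest SCPN sample. The difference was -1.16 ± 0.67 (SE, 95% interval -2.73 to 0.41, limma adjusted p 0.787), and with the replicate block the adjusted p was 0.318. It stayed negative without any 1 sample, at -1.53 when CPN replicate 3 was left out and at -0.65 when CPN replicate 2 was, but was 0.083 by the authors' scaling, where the groups overlapped, and the authors' deposited table gives a ratio of 1.06.

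MiR-383 and miR-129-3p varied more between samples of a class than between the class means. MiR-383, known in human medulloblastoma cells for repressing peroxiredoxin PRDX3, stood at -2.01, 1.50 and 0.169 in CPN and -1.55, 1.17 and 1.34 in SCPN. MiR-129-3p stood at -2.45, -0.097 and -1.52 in CPN and -3.09, -0.61 and -0.442 in SCPN. Both were lowest in the replicate 1 samples, which had the lowest mean Ct, and highest in samples of high Ct, the reverse of miR-7a*. The part of a sample's mean Ct in this was not tested. The differences were 0.44 ± 1.14 for miR-383 and -0.026 ± 0.95 for miR-129-3p (SE, limma adjusted p 0.931 and 0.99). By the authors' scaling they were 1.68 and 1.22, and the ratios in the authors' deposited table were 3.21 and 2.32. The difference of miR-383 turned to -0.511 without CPN replicate 1 and to -0.072 without SCPN replicate 3, and was 1.37 without SCPN replicate 1.

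MiR-153 was near the limit of the assay. It had a Ct of 33.8 and 31.27 in CPN replicates 1 and 3, 32.24 in SCPN replicate 1 and none in the other samples. Because the limit lies at a different level in each sample, the measured level in CPN replicate 1, -11.2, is below the limit of CPN replicate 2, -6.93, and the samples cannot be put in order. The fitted difference of -0.48 ± 1.37 (SE, limma adjusted p 0.935), 0.763 by the authors' scaling, rests on these limits, and it was -2.13 with no limit and samples without a Ct set to 40.

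Gaps between members of 1 card within a sample do not depend on the scaling, and they were compared for all 9 such pairs with Ct under 35 throughout, a choice made after the scaling was seen to turn signs. MiR-328 stood above miR-383 by 5.35, 3.37 and 2.83 cycles in CPN and by 3.86, 1.73 and 1.16 in SCPN. The ranges overlap, but within each same-numbered pair the gap was smaller in SCPN, by nearly the same amount, with changes of -1.48, -1.64 and -1.67. The mean change was -1.60, with an exact two-sided permutation p of 0.3 without the pairing (0.9 adjusted over the 9 pairs), where 0.1 is the smallest possible. Over the 3 same-numbered pairs the exact two-sided sign-flip permutation p was 0.25 (0.563 adjusted over the 9), the smallest that 3 pairs can give. Of the 9 gaps 4 reached it, the 3 of card A and that between the miR-7a* assays. The 3 gaps of card A are built from 3 assays, so each is fixed by the others and they are not separate results. The gap of miR-328 over miR-129-3p changed by -1.13 and in the pairs by -0.377, -1.45 and -1.57, with the same exact p in both tests. That of miR-383 over miR-129-3p changed by 0.464 (exact p 0.3) and was higher in SCPN in all 3 pairs. On card B the 6 gaps changed by -0.321 to 0.675, with exact p of 0.5 to 0.9. The shared-seed pair, miR-330* over miR-326, stood at 2.32, 2.74 and 0.799 in CPN and 1.98, 3.20 and 2.71 in SCPN, a change of 0.675 that was negative in 1 pair and positive in 2.

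**Figure D4:**
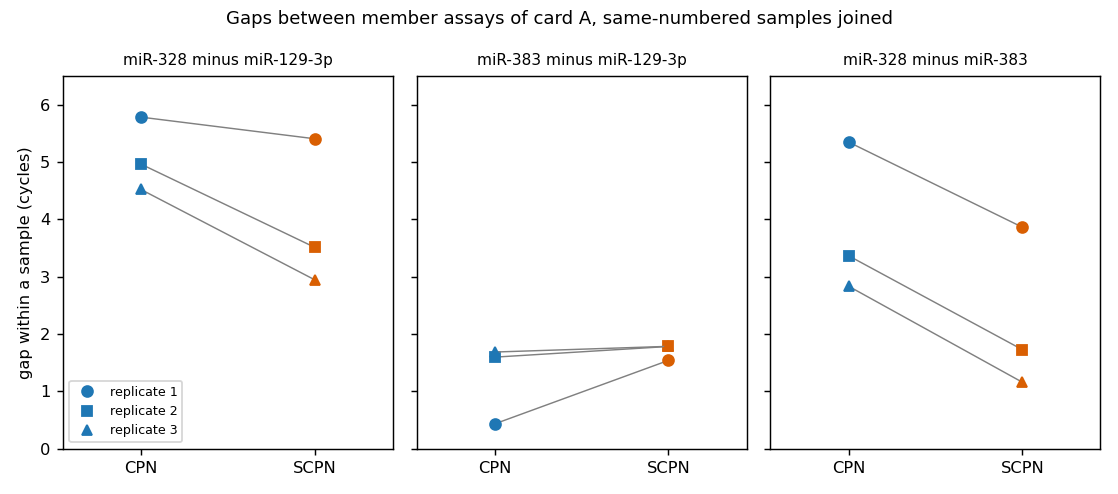
Gap in cycles within a sample (vertical axis) between member assays of card A, for CPN (blue) and SCPN (orange), with lines that join samples of the same replicate number. The gap of miR-328 over miR-383 falls along near-parallel lines from 2.83 to 5.35 in CPN to 1.16 to 3.86 in SCPN, while the groups as a whole overlap.

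The assays whose level ran most like that of miR-328 over the 6 samples, among 207 others on card A, were miR-125a-3p (Pearson r 0.98), miR-671-3p (0.945) and miR-191 (0.917). For the mouse-named miR-7a* assay, among 97 others on card B, they were the rat-named miR-30d* (0.96, with 3 of its 6 values at the Ct limit), the rat-named miR-7a* (0.942) and miR-30e* (0.935). These values are descriptions over 6 samples that share a card and its scale.

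The marker lists of neurons and of other cells had 0 members past an adjusted or an unadjusted p of 0.05 by limma. The neuron-enriched list outside the set had 5 of 9 tested assays higher and 4 lower in SCPN, with a median of 0.12, beside the 4 higher and 6 lower of the set described here. Of the astrocyte assays 2 of 7 were higher (median -0.14), with a summed level of 4.22 to 5.35 in CPN and 4.41 to 5.12 in SCPN. Of the microglia and blood assays 4 of 5 were higher (median 0.27), with a summed level of 1.40 to 2.01 in CPN and 0.784 to 2.81 in SCPN. Of the vascular assays 3 of 4 were higher (median 0.44), with a summed level of 1.70 to 2.47 in CPN and 2.23 to 4.53 in SCPN. Of the 2 oligodendrocyte assays on the cards 1 was tested, at -0.55. By the authors' scaling all 5 medians were positive, from 0.695 to 1.68.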

How the data were processed

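MicroRNA was extracted from purified neuron cell bodies and run on TaqMan Low Density Array rodent cards, per the labels and the series' design text. The deposited raw sheet holds the Ct of 768 wells, and how thresholds were set is not stated in the labels. The authors' normalised sheet equals Ct minus 1 constant per sample and card, checked on the values. The deposited fold table is a ratio, SCPN over CPN, in which 2 is raised to the drop in mean normalised Ct from CPN to SCPN (280 of 280 rows match within 1 percent). Wells with a Ct were averaged per assay, limited at 35, and scaled per card (159 common assays on card A, 65 on card B). Differences, SCPN minus CPN, were fitted in R 4.3.3 by limma 3.58.1 (lmFit, then eBayes). The main fit held the class alone, so limma p-values, SE and intervals given without mention of the block ignore the replicate numbers. P-values are two-sided and adjusted by Benjamini-Hochberg over the 306 assays that had Ct under 35 in at least 3 samples. The fit was also run on simulated levels with independent normal noise. That run had no Ct limit and no correlation between samples, so it does not cover either. No read depth exists, and precision rests on 3 samples per group.

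Replicate numbers come from the labels. Deviations from the group means correlated at 0.552, 0.294 and 0.303 within same-numbered pairs. However, CPN replicate 2 correlated at 0.319 with an SCPN sample of another number. These correlations cover all 306 tested assays, including values at the Ct limit, whose level follows the mean Ct of a sample. The part of such values in them was not tested. The replicate numbers were taken as pairing the samples in the block fit and in the sign-flip test of the gaps, not in the main fit. Every member tested is named with its values, members not tested with their detections, and other assays by likeness to the most abundant member per card or as preset markers. Members and lists were chosen with earlier results of these data known. Alternatives were other scalings, limits and filters, sample weights, the block and leaving out each sample.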

Additional observations from a re-analysis of the deposited data

How the results depend on the processing

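With the 15 alternatives, 0 members passed an adjusted p of 0.05 by limma, and 84 of 106 member differences kept their direction in the alternatives that can move one (the block, both other filters and the setting of single undetermined wells leave all or nearly all of them as they were). With the authors' control scaling 9 members were higher and 1 lower, and groups were apart in 0 members and in 37 of all tested assays. Signs turned there for miR-129-3p (1.22), miR-153 (0.763), miR-328 (0.083), miR-7a* (0.345) and miR-7a (1.11). With no Ct limit groups were apart in 0 members and in 54 of all tested assays. With a limit of 32 miR-129-3p turned to 0.025. With sample weights miR-129-3p turned to 0.669 and the rat-named miR-7a* to -0.215, and 1 assay passed adjusted p 0.05 with 42 at an unadjusted p under 0.05. That last count was 51 with the replicate block and 14 with no filter, and the block changed no call of a member. Leaving out 1 sample gave -0.573 to 0.828 for miR-129-3p, -0.942 to 0.108 for miR-153 (tested in 3 runs), -0.459 to 0.867 for miR-330*, -0.511 to 1.37 for miR-383, -0.868 to 0.953 for miR-7a, -0.766 to 0.563 for miR-7a* and -0.433 to 0.551 for its rat-named assay. It gave 14 to 32 assays and 0 to 1 members at an unadjusted p under 0.05, and groups apart in 59 to 92 assays and in 1 to 2 members, where fewer samples make separation easier. Directions of miR-326, miR-7b and the sign of miR-328 on card means held without any 1 sample. The cause of the other changes was not tested. Signal near the Ct limit restricts miR-153, miR-7a and miR-7b.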
